A study of Mus musculus with 12 samples.

Results

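The 10 genes described here encode the 5 NF-kappaB subunits (Nfkb1, Nfkb2, Rel, Rela and Relb), 3 classical inhibitors of the IkappaB family (Nfkbia, Nfkbib and Nfkbie), the upstream inhibitor Tnfaip3 and the atypical IkappaB protein Bcl3. They were chosen by name as a family, with earlier results of these data known, and taken by symbol from the 40840 gene symbols counted in each library. All 10 were among the 13570 genes tested. The transcriptomes are those of donor OTII cells, CD4+ T cells of the C57BL/6 background that carry a transgenic T-cell receptor against an OVA peptide. Donor cells were transferred into WT or Il6-/- recipients, and both kinds of recipient were then sensitized i.n. with house dust mite extract containing LPS (HDM-LPS) together with LPS-free ovalbumin. OTII cells were sorted from the mediastinal lymph nodes (mLN) on Day 3 or Day 5, which gave 4 groups of 3 replicates: WT Day 3, Il6-/- Day 3, WT Day 5 and Il6-/- Day 5. The Il6-/- recipients carry a germline deletion of Il6 (the B6.129S2 tm1Kopf allele), whereas the donor cells had an intact Il6 gene in all groups, so that reads on Il6 in these libraries cannot serve to check which recipient they came from. The labels give blood as the tissue, and the study's methods give the mLN. Days are numbered as in the labels, and the series record says that the study's paper starts its count at day 0 and not at day 1, so the same sampling day may have another number there. The sources do not state whether a replicate was 1 mouse or a pool, so p-values measure the spread between libraries, which may in part be technical.

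NF-kappaB factors are dimers of Rel-family proteins. p50 and p52, made from the precursors that Nfkb1 and Nfkb2 encode, lack a transactivation domain, whereas Rela, c-Rel (the product of Rel) and Relb carry one. In resting cells IkappaB proteins hold the dimers in the cytoplasm, and signals from the T-cell receptor, CD28 or TNF-family receptors lead to their breakdown. Nfkbia and Tnfaip3 are themselves classical target genes, which closes a negative feedback loop. Bcl3 differs from the classical inhibitors: it is nuclear, binds homodimers of p50 or p52 and can raise or lower their activity, and it is a known target of STAT3, the factor activated by IL-6. In CD4+ T cells c-Rel is known for its part in Il2 transcription.

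Each library held 16125947 to 26111657 reads assigned to genes, and the members had between 230 (Bcl3) and 17417 (Nfkbia) counts in a library. The 9 CD4 T cell markers summed to 8232 to 9474 CPM in WT Day 3 and 7748 to 7891 CPM in Il6-/- Day 3. On Day 5 they summed to 14018 to 14098 CPM in WT and 12229 to 13440 CPM in Il6-/- recipients. Of the 9, 9 in WT and 8 in Il6-/- recipients were higher on Day 5 (FDR under 0.05), beside 29.5% and 30.4% of all genes tested. Of these markers Trac, Lck and Cd3g had the highest levels, with means over all libraries of 3759, 2197 and 1117 CPM, which are counts scaled by TMM factors to a common library total. B cell markers other than Ighm (543 CPM) and Cd79b (5.18 CPM) were below 2 CPM on average, Ms4a1 at 0.0431 CPM. Of the dendritic and myeloid markers Cst3 (93.4 CPM), Lyz2 and Itgam were present, and Clec9a, 77.1% of whose exon bases lie in exons of Clec1a, had no count in any library. Itgax averaged 0.0271 CPM. The summed level of the 9 myeloid and dendritic cell markers ranged from 98.4 to 108 CPM in WT Day 3, 98.6 to 99.4 CPM in Il6-/- Day 3, 114 to 152 CPM in WT Day 5 and 116 to 127 CPM in Il6-/- Day 5. The 9 B cell markers summed to 601 to 683, 548 to 628, 433 to 468 and 479 to 564 CPM in the same order. Cd8b1 averaged 67.9 CPM, Klrb1c 20.2 CPM and Eomes 1.76 CPM, whereas Cd8a averaged 0.511 CPM. Klrb1c was higher in Il6-/- than in WT recipients on Day 3 (20.9 against 4.82 CPM, edgeR quasi-likelihood F test, FDR = 7.7e-06). On Day 5 it averaged 21.9 CPM in Il6-/- and 33.1 CPM in WT recipients. The 6 CD8 T and NK cell markers summed to 62.4 to 74.4 CPM in WT Day 3 and 83.6 to 114 CPM in Il6-/- Day 3, and to 85.8 to 110.0 CPM on Day 5. Markers of lung epithelium summed to at most 20.7 CPM and erythroid markers to at most 0.935 CPM in any library. The part of other cells in the results below was not tested.

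The members lie on 7 chromosomes of GRCm39 (GENCODE vM39). Nfkb1 is at chr3:135290264-135397742 (minus strand), Nfkb2 at chr19:46292759-46303812 (plus), Rel at chr11:23686847-23721264 (minus), Rela at chr19:5687493-5698161 (plus) and Relb at chr7:19339017-19363425 (minus). Nfkbia is at chr12:55535332-55539432 (minus), Nfkbib at chr7:28457486-28466937 (minus), Nfkbie at chr17:45866585-45874661 (plus), Tnfaip3 at chr10:18874201-18891405 (minus) and Bcl3 at chr7:19541553-19557570 (minus). Reads were counted without regard to strand. Exons of Psd cover 24.5% of the exon bases of Nfkb2 and those of 4833438C02Rik 13.7%, exons of Ccer2 cover 13.3% of Nfkbib, and those of Gm36634 cover 7.28% of Nfkbia, so the values of these 3 members carry some uncertainty. The other 7 members share no exon bases with another counted gene.

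Because several of these genes are classical NF-kappaB targets, the 250 bases before each RefSeq transcription start (GRCm38.p6, placed on GRCm39 by an exact match) were searched on both strands for the kappaB consensus and for TTCNNNGAA, the letters of a STAT site. RefSeq windows were at hand for 8 members (11 windows in all), and not for Nfkb1 and Relb. The kappaB consensus was found in 7 of the 11 windows, those of Nfkb2, Rel, Nfkbia, Nfkbie and Tnfaip3, and in 7.28% of all 32536 windows. TTCNNNGAA was found in 1 window, that of Nfkb2, and in 7.04% of all windows. The windows of Rela, Nfkbib and Bcl3 held neither set of letters. GC content of the members' windows ranged from 46.4% to 77.6%, and the background was not matched for it. The sequences below show 1 kappaB match for each gene that had any, and the single STAT match, so that the letters behind these counts can be seen. Each is written 5′ to 3′ on the strand of the gene, with the match in capitals, and no STAT match overlapped a kappaB match.
Nfkb2, kappaB, 39 bases before a start, chr19:46293128-46293156: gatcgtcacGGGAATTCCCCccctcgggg
Rel, kappaB, 92 bases before the start, chr11:23721042-23721070: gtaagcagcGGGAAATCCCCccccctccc
Nfkbia, kappaB, 29 bases before the start, chr12:55539443-55539470: gactggcttGGAAATTCCCcgcgcctga
Nfkbie, kappaB, 106 bases before the start, chr17:45866511-45866538: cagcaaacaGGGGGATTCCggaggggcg
Tnfaip3, kappaB, 125 bases before a start, chr10:18891265-18891292: actcacgcgGGGACACCCCggggcggga
Nfkb2, STAT, 148 bases before a start, chr19:46293019-46293045: gggcgagccTTCCCCGAAaggggcgcg
The stretches of Nfkb2 and Rel overlap annotated GENCODE exons of the same gene, and those of Nfkbia, Nfkbie and Tnfaip3 do not. Exons of other genes were not checked at these stretches. A match of letters is a description and not a site of binding.

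Per kilobase of exon, the members spanned 47.8-fold in WT Day 3 and 96.5-fold in Il6-/- Day 5, from the highest level to the lowest. Nfkbia, which encodes IkappaB-alpha, was the highest in each group, at 186 CPM per kb in WT Day 3, 184 in Il6-/- Day 3, 362 in WT Day 5 and 288 in Il6-/- Day 5. In WT Day 3 it was followed by Nfkbib (44.9 CPM per kb), Rela (41.3), Nfkb2 (18.7), Nfkbie (16.03), Relb (14.4), Bcl3 (10.1), Nfkb1 (7.51), Tnfaip3 (6.77) and Rel (3.88). The ranges of the 3 libraries overlapped between each neighbouring pair from Nfkbie to Tnfaip3 in this order, and not between the others. Bcl3 was the lowest member of both Il6-/- groups, with 4.83 CPM per kb on Day 3 and 2.99 on Day 5. Rel had the lowest mean in both WT groups. In WT Day 5 its libraries (5.67 to 7.35 CPM per kb) overlapped those of Bcl3 (4.05 to 8.83). On Day 3 the libraries of Il6-/- recipients did not overlap between Tnfaip3 and Bcl3, nor did they on Day 5 between Rel and Bcl3. Bcl3 and Tnfaip3 varied the most among replicates, with median coefficients of variation over the 4 groups of 21.5% and 19.6% on the CPM scale. Rela varied the least, with 4.21%.

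To ask whether IL-6 in the recipient altered NF-kappaB transcripts, OTII cells from both kinds of recipient were compared on Day 3 and on Day 5, in 1 model of all 12 libraries (edgeR, quasi-likelihood F test). A gene passed at an FDR under 0.05 over all 13570 genes tested, and log2 fold changes (log2FC) are given as Il6-/- relative to WT unless stated. On Day 3, 3 of the 10 members were higher in Il6-/- recipients (Nfkb1, Nfkb2 and Rel), where 7.52% of all genes tested were, and 1 was lower (Bcl3), where 6.19% were. The change was at least 2-fold for 1 member, Bcl3, and for 2.74% of all genes. In these bulk libraries fewer cells that express a gene and less RNA per cell cannot be told apart. On Day 5, no member passed as higher (1.27% of all genes did), and 2 passed as lower, Bcl3 and Relb (3.35%). Again Bcl3 was the 1 member with a change of at least 2-fold (1.14% of all genes). The difference between recipients differed between the days for 1 member, Relb. Its difference was lower on Day 5 relative to Day 3, and 3.12% of all genes passed in that direction. No member passed in the other direction, where 1.80% of all genes did, and none had an unadjusted p under 0.05 there. On Day 5, 6 members had an unadjusted p under 0.05, as did 19.8% of all genes. Of the 6, Nfkb2, Nfkbie and Rel were higher and Bcl3, Relb and Nfkbia lower, and DESeq2 called Nfkb2 and Nfkbie higher. The median log2FC of the members was 0.12 on Day 3 and 0.14 on Day 5, beside 0.01 and 0.01 for all genes tested.

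The same model compared Day 5 with Day 3 within each kind of recipient. In WT recipients, 7 members were higher on Day 5 (Nfkb1, Rel, Rela, Relb, Nfkbia, Nfkbie and Tnfaip3) and none passed as lower, beside 29.5% and 27.1% of all genes. Bcl3 alone had an unadjusted p under 0.05 (0.049) among the lower members there, and DESeq2 called it. None of the 7 changed by at least 2-fold, which 22.1% of all genes did. In Il6-/- recipients, 4 members were higher on Day 5 (Rela, Nfkbia, Nfkbie and Tnfaip3) and 2 lower (Nfkb2 and Bcl3), beside 30.4% and 30.1% of all genes. At least a 2-fold change was seen for 1 member, Tnfaip3, and for 25.9% of all genes. The median log2FC of the members from Day 3 to Day 5 was 0.36 in WT and 0.18 in Il6-/- recipients, beside 0.09 in each for all genes. These comparisons share the same libraries as the comparisons of recipients. Upper-quartile scaling moved the median log2FC of all genes from Day 3 to Day 5 to 0.29 in WT and 0.32 in Il6-/- recipients, and of the genes that passed, 66.5% and 65.0% were then higher on Day 5, instead of 52.1% and 50.2%. Without scaling, the share of higher genes among those that passed was 39.3% instead of 54.9% between recipients on Day 3, 40.8% instead of 27.5% on Day 5 and 64.8% instead of 36.5% for the interaction. No scaling turned the direction of a member that passed between recipients.

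**Figure D1:**
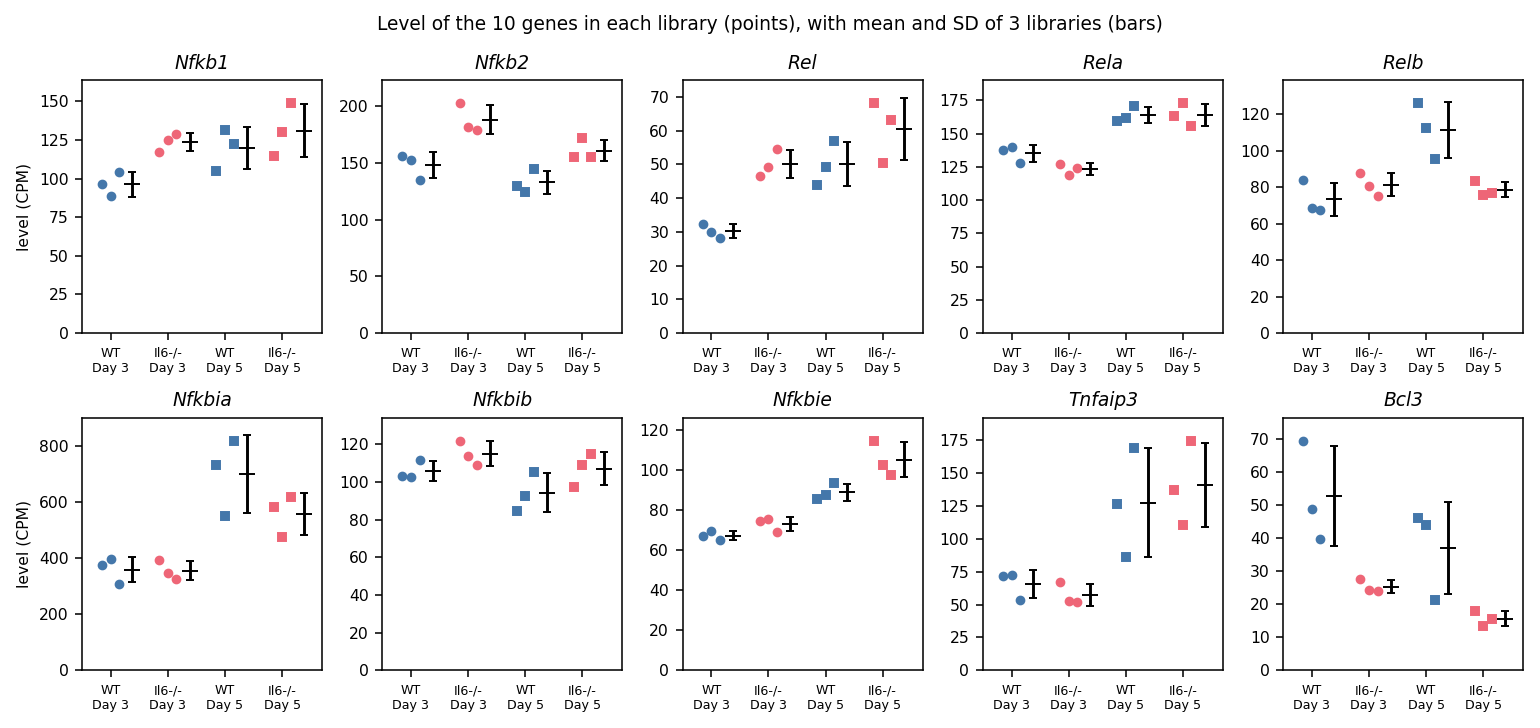
Level of each member in CPM (vertical axis, from 0) in every library (points; circles Day 3, squares Day 5, blue WT, red Il6-/- recipients), with the mean and SD of the 3 libraries of a group (black bars). Bcl3 is lower in Il6-/- recipients on both days, with WT Day 5 replicate 3 (21.2 CPM) near the Il6-/- libraries, and Relb is high in WT Day 5 (95.3 to 126 CPM).

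Among the subunits, Rel showed the clearest difference on Day 3. WT libraries had 32.4, 29.8 and 28.2 CPM and Il6-/- libraries 46.5, 49.3 and 54.6 CPM, so that each Il6-/- library was above each WT library. Rel was 1.66-fold higher in Il6-/- recipients (95% interval 1.38 to 2.00, log2FC 0.73, SE 0.12, FDR = 0.0013), and it passed in each of the 21 alternative analyses of this comparison. On Day 5, WT libraries had 44.0, 49.2 and 57.0 CPM and Il6-/- libraries 68.1, 50.3 and 63.03 CPM, and the groups overlapped. The log2FC was 0.27 (95% interval 0.01 to 0.53, FDR = 0.23). In WT recipients Rel rose by 1.66-fold from Day 3 to Day 5 (log2FC 0.73, SE 0.12, FDR = 0.00014), to the same mean, 50.1 CPM, that Il6-/- libraries had on Day 3. In Il6-/- recipients the log2FC between the days was 0.27 (FDR = 0.067), and Rel passed there with upper-quartile scaling (0.50, FDR = 0.0029), without scaling (0.42, FDR = 0.0081), with a filter at 1 CPM (FDR = 0.047) and without Il6-/- Day 5 replicate 2 (0.40, FDR = 0.0094). The recipient difference was smaller on Day 5 by 0.46 on the log2 scale, but this did not pass (95% interval -0.83 to -0.09, FDR = 0.15).

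Nfkb1 and Nfkb2, the precursors of p50 and p52, were also higher on Day 3 in Il6-/- recipients, by smaller amounts. Nfkb1 had 96.2, 88.5 and 105 CPM in WT and 117, 125 and 129 CPM in Il6-/- libraries. These groups did not overlap, and the log2FC was 0.36 (SE 0.11, FDR = 0.035). Nfkb1 lost this call in 8 of the 21 alternatives, among them upper-quartile scaling (FDR = 0.058), no scaling (0.077) and the loss of any 1 of 6 libraries (up to 0.16, without WT Day 3 replicate 2). On Day 5 Nfkb1 had 105, 132 and 122 CPM in WT and 115, 129.9 and 149 CPM in Il6-/- libraries, with a log2FC of 0.13 (95% interval -0.09 to 0.36, FDR = 0.54). From Day 3 to Day 5 it rose in WT recipients (log2FC 0.31, FDR = 0.021), a call that was lost without any 1 of 4 libraries (FDR up to 0.10, without WT Day 5 replicate 2). In Il6-/- recipients its log2FC between the days was 0.08 (95% interval -0.14 to 0.31), or 0.31 with upper-quartile scaling (FDR = 0.017).

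Nfkb2 had 156, 152 and 135 CPM in WT and 203, 182 and 179 CPM in Il6-/- libraries on Day 3, so the groups stood apart, and the log2FC was 0.35 (SE 0.09, FDR = 0.016). The call was lost without WT Day 3 replicate 3 (FDR = 0.085) and without Il6-/- Day 3 replicate 1 (FDR = 0.084). On Day 5, WT libraries had 129.6, 124 and 144 CPM and Il6-/- libraries 156, 172 and 155 CPM. These groups did not overlap either, but the log2FC of 0.28 (SE 0.09) did not pass (FDR = 0.086). It passed with replicate number as a block (FDR = 0.028) and in DESeq2 (adjusted p = 0.032). From Day 3 to Day 5 the level fell by 0.22 on the log2 scale in Il6-/- recipients (FDR = 0.036), whereas with upper-quartile scaling the log2FC was 0.00 and without scaling -0.07. The call was also lost without any 1 of 3 Il6-/- libraries (FDR 0.093 to 0.14), from 6 libraries alone (FDR = 0.060) and with a filter at 1 CPM (FDR = 0.050). Relative to the median of all genes, which a scaling shifts alike, the log2FC was -0.31. In WT recipients the log2FC between the days was -0.16 (95% interval -0.34 to 0.03, FDR = 0.14).

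Rela, the subunit with the highest level per kilobase, did not pass between recipients on either day. Its libraries had 138, 139.8 and 128 CPM in WT Day 3, 127, 119 and 124 CPM in Il6-/- Day 3, 159, 162 and 171 CPM in WT Day 5 and 164, 173 and 156 CPM in Il6-/- Day 5. On Day 3 the Il6-/- libraries lay just below the WT libraries, and on Day 5 the groups overlapped. The log2FC between recipients was -0.13 on Day 3 (95% interval -0.29 to 0.02, FDR = 0.27) and 0.00 on Day 5 (95% interval -0.15 to 0.15, FDR = 1). Rela rose from Day 3 to Day 5 in WT (log2FC 0.28, SE 0.07, FDR = 0.0042; 0.098 without a filter on low counts) and in Il6-/- recipients (log2FC 0.41, SE 0.07, FDR = 0.00017).

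Relb, the transactivating partner of p52, was the 1 member whose difference between recipients depended on the day. On Day 3 it had 83.8, 68.6 and 67.5 CPM in WT and 87.9, 80.7 and 75.4 CPM in Il6-/- libraries, and the groups overlapped (log2FC 0.15, 95% interval -0.09 to 0.38, FDR = 0.43). On Day 5 WT libraries had 126, 112 and 95.3 CPM, each above the Il6-/- libraries with 83.3, 75.5 and 76.9 CPM. Relb was 1.42-fold lower in Il6-/- recipients on Day 5 (log2FC -0.50, SE 0.11, FDR = 0.018). The interaction was -0.65 on the log2 scale (SE 0.16, FDR = 0.029). Both calls were sensitive to single libraries: the Day 5 call was lost without WT Day 5 replicates 1 or 2 or Il6-/- Day 5 replicates 2 or 3 (FDR 0.064 to 0.099), and the interaction was lost in 8 of the 12 such fits (FDR up to 0.088). In WT recipients Relb rose by 1.52-fold from Day 3 to Day 5 (log2FC 0.60, SE 0.11, FDR = 0.00027) and passed in each of 21 alternatives. The log2FC between the days in Il6-/- recipients was -0.05 (95% interval -0.28 to 0.18, FDR = 0.71), with a sign that turned under upper-quartile scaling (0.18) and without scaling (0.10).

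**Figure D2:**
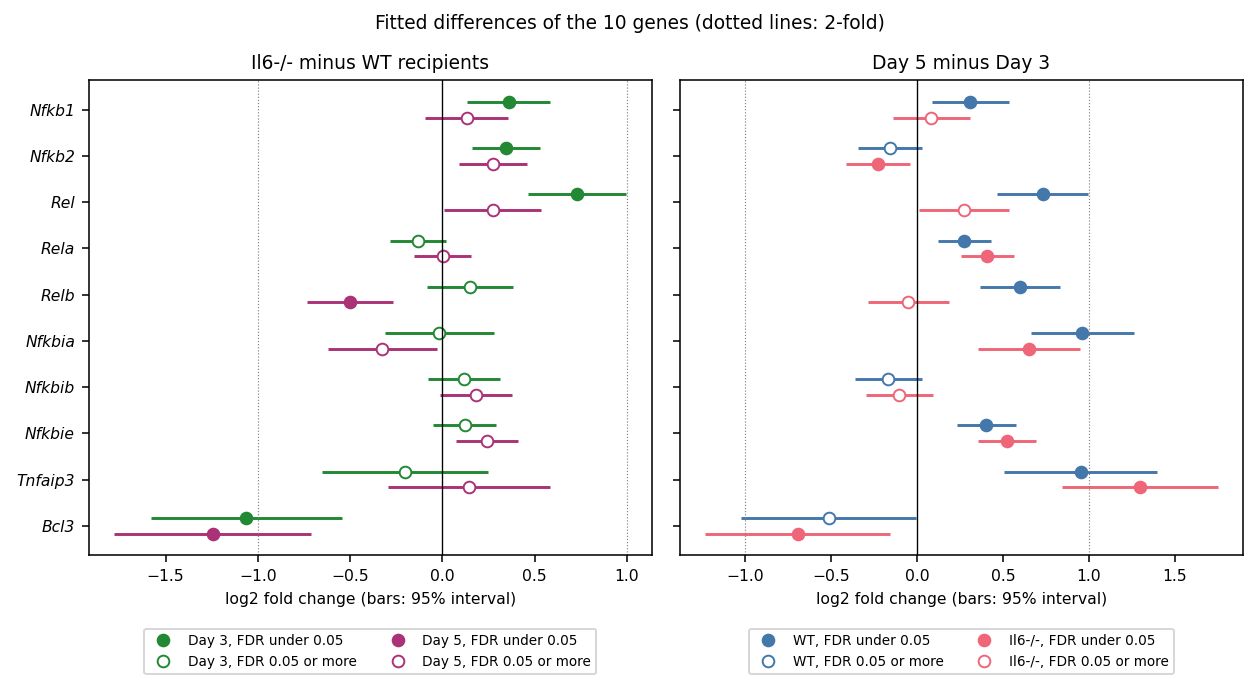
Fitted log2 fold changes of the members (horizontal axis) with 95% intervals, between recipients on each day (left) and between days in each kind of recipient (right). Filled points passed an FDR of 0.05. Bcl3 lies beyond the dotted 2-fold line on both days, and Relb is below 0 on Day 5 alone.

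None of the classical inhibitors passed between recipients on either day in the main model. Nfkbia had 374, 396 and 308 CPM in WT Day 3, 394, 346 and 327 CPM in Il6-/- Day 3, 732, 549.7 and 819 CPM in WT Day 5 and 581, 475 and 619 CPM in Il6-/- Day 5. Groups overlapped on each day. The log2FC between recipients was -0.02 on Day 3 (95% interval -0.31 to 0.28, FDR = 0.96) and -0.33 on Day 5 (95% interval -0.62 to -0.03, FDR = 0.20). The Day 5 difference passed with a block for replicate number (log2FC -0.32, FDR = 0.0073). It also passed without a filter on low counts (log2FC -0.32, FDR = 0.0068). Nfkbib, which encodes IkappaB-beta, ranged from 84.9 to 122 CPM over the 12 libraries. Its log2FC was 0.12 (95% interval -0.08 to 0.31) on Day 3 and 0.18 (95% interval -0.01 to 0.38) on Day 5. Nfkbie, which encodes IkappaB-epsilon, had 67.1, 69.5 and 65.0 CPM in WT Day 3, 74.5, 75.7 and 69.3 CPM in Il6-/- Day 3, 85.5, 87.6 and 93.6 CPM in WT Day 5 and 115, 103 and 97.7 CPM in Il6-/- Day 5. On Day 5 each Il6-/- library was above each WT library, with a log2FC of 0.24 (95% interval 0.07 to 0.41) that did not pass (FDR = 0.098; DESeq2 adjusted p = 0.035).

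Nfkbia and Nfkbie moved more between the days than between recipients. Nfkbia rose by 1.95-fold in WT (log2FC 0.96, SE 0.14, FDR = 3.3e-05) and by 1.57-fold in Il6-/- recipients (log2FC 0.65, SE 0.14, FDR = 0.00088). Nfkbie rose by 1.32-fold (log2FC 0.40, SE 0.08, FDR = 0.00052) and 1.44-fold (log2FC 0.52, SE 0.08, FDR = 4.3e-05). Nfkbib did not pass in either, with a log2FC of -0.17 in WT (95% interval -0.36 to 0.03) and -0.10 in Il6-/- recipients (95% interval -0.30 to 0.09).

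Tnfaip3, which encodes A20, a ubiquitin-editing enzyme that restrains the signaling upstream of the IkappaB kinases, passed between the days and not between recipients. It had 71.7, 72.3 and 53.3 CPM in WT Day 3, 66.9, 52.8 and 52.2 CPM in Il6-/- Day 3, 126, 86.3 and 169 CPM in WT Day 5 and 137, 110.5 and 174 CPM in Il6-/- Day 5. Within each recipient every Day 5 library was above every Day 3 library. Tnfaip3 rose by 1.93-fold in WT (log2FC 0.95, SE 0.21, FDR = 0.0013) and by 2.46-fold in Il6-/- recipients (log2FC 1.30, SE 0.21, FDR = 8.3e-05). Between recipients the log2FC was -0.20 on Day 3 (95% interval -0.65 to 0.25, FDR = 0.61) and 0.14 on Day 5 (95% interval -0.30 to 0.59, FDR = 0.77).

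Genes of the immediate early and stress response were mostly higher on Day 5, as Nfkbia and Tnfaip3 were. Of 16 such genes 11 were higher and 1 lower on Day 5 in WT recipients, and 15 were higher and 1 lower in Il6-/- recipients, beside 29.5% and 30.4% of all genes that were higher. Their median log2FC was 0.98 and 1.60, beside 0.09 for all genes. The highest calls by p were Egr2, Nr4a1 and Fos in WT (log2FC 1.499, 1.33 and 2.47), and Egr2, Zfp36 and Nr4a1 in Il6-/- recipients (log2FC 1.98, 1.75 and 1.24). Hsph1, which encodes a heat shock protein, was lower in both (log2FC -1.63 and -1.55). Their summed level was 1474, 1399.6 and 1164 CPM in WT Day 3, 1200.1, 1136 and 1107 CPM in Il6-/- Day 3, 2652, 2017 and 2484 CPM in WT Day 5, and 3267, 1875 and 2991 CPM in Il6-/- Day 5. The sums include Hspa1a and Hspa1b, near-identical copies whose counts are uncertain. They averaged 150 and 410 CPM in Il6-/- Day 5, against 13.6 and 57.4 CPM in WT Day 5. In both Day 5 groups replicate 2 had the lowest sum, the lowest Nfkbia and the lowest Tnfaip3. Replicate 1 had the highest sum in both, whereas replicate 3 had the highest Nfkbia and Tnfaip3. The part of these genes' response in the levels of Nfkbia and Tnfaip3 was not tested.

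**Figure D3:**
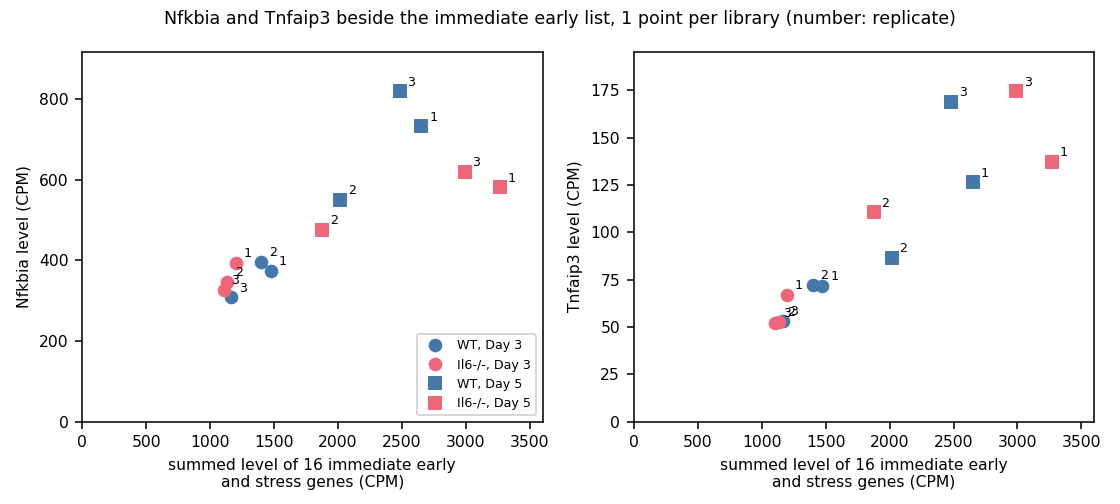
Level of Nfkbia (left) and Tnfaip3 (right) in CPM against the summed level of 16 immediate early and stress genes in CPM, 1 point per library with its replicate number (circles Day 3, squares Day 5, blue WT, red Il6-/-). The Day 3 libraries lie at sums of 1107 to 1474 CPM and the Day 5 libraries at 1875 to 3267 CPM. Replicate 2 is the lowest of both Day 5 groups, replicate 1 has the highest sum and replicate 3 the highest level. The sums include Hspa1a and Hspa1b, whose counts are uncertain.

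Bcl3 had the largest difference between recipients among the members on both days. On Day 3 WT libraries had 69.6, 48.9 and 40.0 CPM and Il6-/- libraries 27.6, 24.4 and 24.0 CPM, with no overlap. It was 2.09-fold lower in Il6-/- recipients (log2FC -1.06, SE 0.24, FDR = 0.0091), and passed the FDR in each of 21 alternatives (FDR at most 0.043). Without WT Day 3 replicate 1, the highest library, the log2FC was -0.81 (FDR = 0.043), which is less than 2-fold. On Day 5 WT libraries had 46.3, 44.1 and 21.2 CPM and Il6-/- libraries 17.9, 13.5 and 15.6 CPM. The groups again did not overlap, although WT replicate 3 was nearer to the Il6-/- libraries than to the other WT libraries. Bcl3 was 2.37-fold lower in Il6-/- recipients (log2FC -1.24, SE 0.25, FDR = 0.011). That call was lost without WT replicates 1 or 2 or Il6-/- replicate 2 (log2FC -1.05 to -1.12, FDR 0.055 to 0.061). Without both Day 5 libraries numbered 3, an analysis chosen after seeing the data, the log2FC was -1.52 (FDR = 0.0018). The difference between recipients did not differ detectably between the days (-0.18 on the log2 scale, 95% interval -0.92 to 0.56, FDR = 0.82). From Day 3 to Day 5 Bcl3 fell by 0.69 on the log2 scale in Il6-/- recipients (FDR = 0.027), a call that was lost with upper-quartile scaling (-0.46, FDR = 0.11), without scaling (-0.54, FDR = 0.067), in limma-voom (adjusted p = 0.072) and without any 1 of 3 libraries. In WT recipients the log2FC between the days was -0.51 (95% interval -1.02 to 0.00, FDR = 0.080), a difference that passed in DESeq2 (adjusted p = 0.036) and limma-voom (adjusted p = 0.041).

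The 5 genes whose log2 CPM followed that of Bcl3 most closely over the 12 libraries were Smad3 (Pearson r = 0.95), Hace1 (0.93), Cmas (0.93), Mark2 (0.92) and Galnt2 (0.92). They were picked for the highest r among all genes tested, and the libraries share their group differences. Smad3, a transducer of TGF-beta signals, was lower in Il6-/- recipients on Day 3 (log2FC -0.69, FDR = 0.011), and its log2FC on Day 5 was -0.56 (FDR = 0.067). Galnt2, a glycosyltransferase, was lower on both days (log2FC -0.60, FDR = 0.00033, and -0.55, FDR = 0.0025). Hace1, Cmas and Mark2 did not pass on Day 3 (FDR = 0.41, 0.2 and 0.2). On Day 5 Mark2 was lower (log2FC -0.51, FDR = 0.018), and Hace1 and Cmas did not pass (FDR = 0.064 and 0.051).

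The makeup of the subunit pool does not depend on how libraries are scaled. Each subunit's counts per kilobase were divided by the sum over the 5 subunits in the same library, and means were compared by an exact two-sided permutation test of genotype within day and of day within genotype (400 labelings, smallest p 0.005, which did not keep same-numbered Day 5 libraries together), adjusted over 14 tests of 5 shares and 2 ratios. Rela made up 48.2% ± 1.37 (SD, n = 3) of the pool in WT Day 3, 40.3% ± 0.623 in Il6-/- Day 3, 47.9% ± 1.17 in WT Day 5 and 48.2% ± 1.60 in Il6-/- Day 5. It thus stood lower in Il6-/- Day 3 than in the other 3 groups, but over both days its share was 44.3% in Il6-/- and 48.0% in WT libraries (exact p = 0.065, adjusted p = 0.112). Shares within a library are linked, as a rise of 1 subunit lowers the shares of the others. The level of Rela itself did not pass between recipients on Day 3 (edgeR log2FC -0.13, FDR = 0.27). Nfkb2 held 21.8% ± 0.708, 25.4% ± 0.973, 16.1% ± 1.05 and 19.6% ± 0.823 in the same order of groups. Its share was larger in Il6-/- recipients (22.5% against 18.9%, exact p = 0.005, adjusted p = 0.0233) and smaller on Day 5 than on Day 3 (17.8% against 23.6%, exact p = 0.005, adjusted p = 0.0233). Rel held 4.52% ± 0.0951, 6.91% ± 0.712, 6.17% ± 0.732 and 7.51% ± 1.23. Over both days the share of Rel was larger in Il6-/- libraries (7.21% against 5.34%, exact p = 0.01, adjusted p = 0.035), and its adjusted p was 0.0525 to 0.07 when 1 of 6 libraries was left out, with fewer labelings. The share of Relb was 20.9% ± 3.14 in WT Day 5 and 14.9% ± 0.891 in Il6-/- Day 5, beside 16.8% ± 1.37 and 17.1% ± 0.936 on Day 3, and neither comparison passed the exact test (adjusted p = 0.112 for genotype, 0.618 for day). The share of Nfkb1 lay between 7.87% and 11.3% over all libraries.

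**Figure D4:**
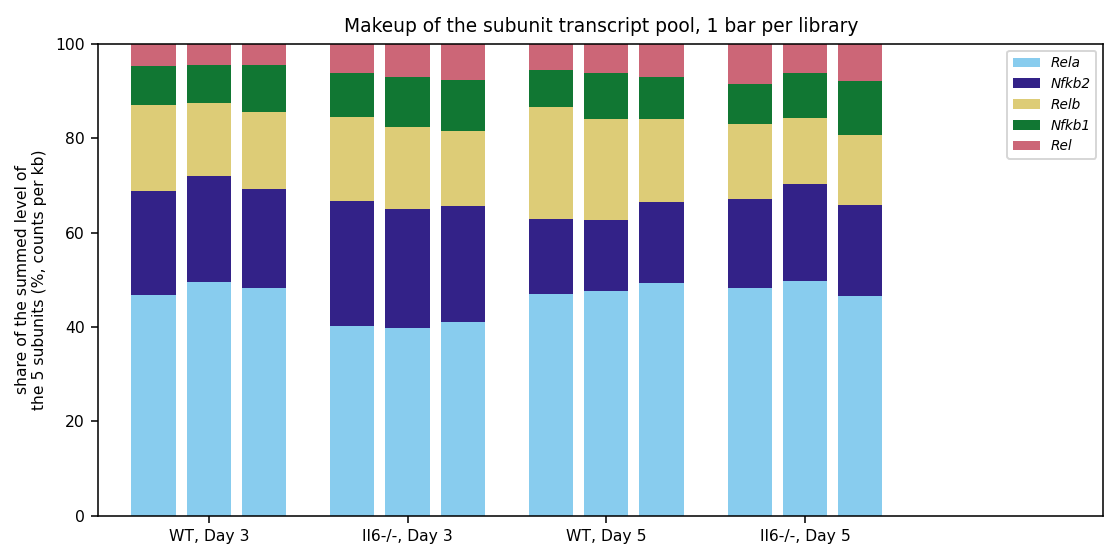
Share of each subunit in the summed level of the 5 subunits (vertical axis, percent of counts per kb of exon), 1 bar for each library. Rela makes up 39.8% to 41.0% in the 3 Il6-/- Day 3 libraries and 46.6% to 49.8% in the other 9, while its own level did not pass between recipients on Day 3.

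Bcl3 binds the products of Nfkb1 and Nfkb2, and Relb and Rela are the transactivating subunits of the alternative and the classical branch, so their ratios were compared as well. The log2 ratio of Bcl3 to Nfkb1 plus Nfkb2 was -1.04, -1.49 and -1.73 in WT Day 3, -2.72, -2.81 and -2.84 in Il6-/- Day 3, -1.48, -1.63 and -2.78 in WT Day 5 and -3.06, -3.63 and -3.39 in Il6-/- Day 5. On each day every Il6-/- library was below every WT library of that day. The mean was 1.39 lower in Il6-/- recipients on the log2 scale over both days (exact p = 0.005, the smallest possible, adjusted p = 0.0233), and it kept its call without any single library. This ratio uses the same counts as the calls of Bcl3, Nfkb1 and Nfkb2 above, so it is not separate support for them. Between the days the difference was -0.56 (exact p = 0.03, adjusted p = 0.084), or -0.68 without WT Day 5 replicate 1 (adjusted p = 0.035). The mean log2 ratio of Relb to Rela was -1.24 ± 0.1003 in Il6-/- and -1.53 ± 0.156 in WT libraries on Day 3. The groups overlapped there, as Il6-/- replicate 3 (-1.3559) was just below WT replicate 1 (-1.3555). On Day 5 the mean was lower in Il6-/- libraries (-1.70 ± 0.117 against -1.20 ± 0.255), with no overlap. Averaged over the days, the differences between the means gave -0.10 (exact p = 0.53, adjusted p = 0.618). Within a single day 3 libraries against 3 cannot give an exact p below 0.1.

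**Figure D5:**
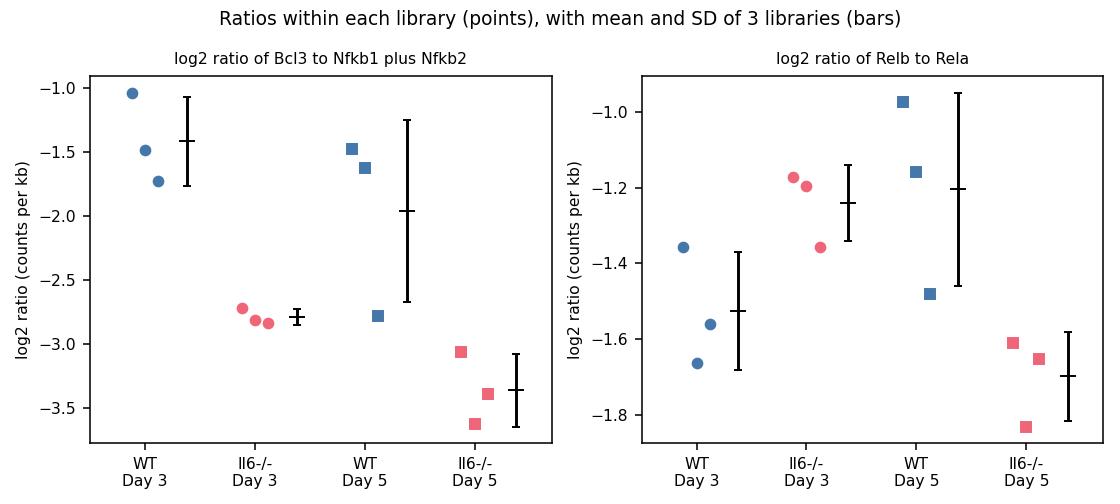
Log2 ratios of counts per kb within each library (points; circles Day 3, squares Day 5, blue WT, red Il6-/-), with the mean and SD of 3 libraries (black bars). Bcl3 relative to Nfkb1 plus Nfkb2 is lower in Il6-/- recipients on both days. Relb relative to Rela is lower in Il6-/- recipients on Day 5 (mean -1.70 against -1.20), and on Day 3 the groups overlap (mean -1.24 against -1.53).

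The rest of the pathway was described by lists of known genes, chosen with earlier results of these libraries known, so that their counts are descriptions. Among 24 genes of the upstream signaling (kinases, adaptors and ubiquitin ligases), 3 passed on Day 3, all lower in Il6-/- recipients (6.19% of all genes were), with a median log2FC of -0.10. Prkcq, the kinase that links the T-cell receptor to NF-kappaB, was lower (367 ± 6.65 CPM in WT and 235 ± 14.02 CPM in Il6-/-, log2FC -0.64, FDR = 0.00017), as was Ikbke (log2FC -0.55, FDR = 0.00072). On Day 5, Chuk, the kinase that drives Nfkb2 processing, was lower (log2FC -0.40, FDR = 0.030) and Traf5 higher (log2FC 0.30, FDR = 0.045). The recipient difference changed between the days for Prkcq (interaction 0.64, FDR = 0.0088) and Ikbke (0.46, FDR = 0.044), both of which had a less negative log2FC on Day 5. From Day 3 to Day 5, 9 of the 24 were higher and 5 lower in WT (29.5% and 27.1% of all genes), and 14 higher and 5 lower in Il6-/- recipients (30.4% and 30.1%). Ikbke and Map3k14, the kinase of the alternative branch, rose in both (log2FC 0.87 and 0.77 in WT, 1.32 and 0.96 in Il6-/-), and Chuk fell in both (log2FC -0.56 and -0.96).

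Of 18 other genes listed as inhibitors of NF-kappaB, 1 was higher and 4 lower in Il6-/- recipients on Day 3, beside 7.52% and 6.19% of all genes. Whether each of them inhibits NF-kappaB in these cells was not measured. Nfkbid, an atypical IkappaB gene like Bcl3, was higher (108 ± 5.99 CPM in WT, 162 ± 4.70 CPM in Il6-/-, log2FC 0.59, FDR = 0.00036), whereas the related Nfkbiz was lower (86.4 ± 8.05 against 54.1 ± 1.49 CPM, log2FC -0.68, FDR = 0.00085). Nlrc3 (log2FC -0.64, FDR = 0.0057), Tax1bp1, a partner of A20 (log2FC -0.30, FDR = 0.0092), and Usp18 (log2FC -1.10, FDR = 0.018) were lower as well. Peli1, a ubiquitin ligase that restrains c-Rel, was lower on Day 5 (154 ± 47.2 CPM in WT, 62.9 ± 11.7 CPM in Il6-/-, log2FC -1.29, FDR = 0.0025). The interaction passed for Nfkbid (-0.54, FDR = 0.019), Nfkbiz (0.60, FDR = 0.036) and Peli1 (-1.02, FDR = 0.043). So the 3 atypical IkappaB genes Bcl3, Nfkbiz and Nfkbid did not share a direction on Day 3. In each kind of recipient 10 of the 18 were higher and 1, Commd1, lower on Day 5 than on Day 3, beside 29.5% and 27.1% of all genes in WT and 30.4% and 30.1% in Il6-/- recipients, and Nlrc5 had the smallest p among the higher genes (log2FC 1.07 in WT and 1.24 in Il6-/-).

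Of 31 known NF-kappaB target genes tested, in a list of 32, 7 passed on Day 3, all higher in Il6-/- recipients (7.52% of all genes were), with a median log2FC of 0.15. The 6 with the smallest p were Lta, Bcl2l1, Cd83, Vcam1, Sod2 and Tnfrsf9. Bcl2l1, which encodes the survival protein Bcl-xL, averaged 74.4 ± 7.52 CPM in WT libraries and 147 ± 14.3 CPM in Il6-/- libraries (log2FC 0.99, FDR = 0.00025). Cd83, a surface protein of activated lymphocytes, averaged 119.5 ± 26.7 and 274 ± 30.4 CPM (log2FC 1.20, FDR = 0.00027). On Day 5 the higher genes were Bcl2l1 (log2FC 0.68, FDR = 0.0096), Cd83 (0.81, FDR = 0.010) and Lta (0.39, FDR = 0.037). Members and target genes were thus on both sides of 0 on Day 3: Rel, Nfkb1, Nfkb2 and these targets were higher, and Bcl3 was lower. From Day 3 to Day 5, 18 targets were higher and 6 lower in WT, and 17 higher and 6 lower in Il6-/- recipients, beside 29.5% and 27.1%, and 30.4% and 30.1%, of all genes. Ltb and Irf1 rose in both (log2FC 1.32 and 0.91 in WT, 1.43 and 0.94 in Il6-/-), and Irf4 and Marcksl1 fell in both (log2FC -0.77 and -1.12 in WT, -0.79 and -1.47 in Il6-/-).

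Among receptors that signal to NF-kappaB, 19 were listed and 16 tested. On Day 3 in Il6-/- recipients 5 of them were lower and 3 higher, beside 6.19% and 7.52% of all genes. Il1r1, the receptor for IL-1, fell furthest, from 44.4 ± 4.61 CPM in WT to 4.29 ± 1.07 CPM (log2FC -3.37, FDR = 7e-05). Tnfrsf25 (log2FC -1.74), Cd27 (-1.19), Icos (-1.04) and Cd28 (-0.48) were lower as well, and Tnfrsf4, which encodes OX40, was higher (log2FC 0.55, FDR = 0.0021). On Day 5, Tnfrsf1b, which encodes TNF receptor 2, was higher (130.1 ± 5.03 CPM in WT, 218 ± 23.2 CPM in Il6-/-, log2FC 0.75, FDR = 0.0011), and Il1r1 (log2FC -2.04) and Tnfrsf25 (-0.71) were lower. Tnfrsf1b had passed as higher on Day 3 too (log2FC 0.39, FDR = 0.013). Icos (interaction 0.91, FDR = 0.0030) and Tnfrsf25 (1.02, FDR = 0.015) differed less between recipients on Day 5. Between the days, 7 receptors were higher and 3 lower in WT (29.5% and 27.1% of all genes), and 8 passed in Il6-/- recipients, all higher (30.4% of all genes). Exons of Espn cover 17.1% of the exon bases of Tnfrsf25, those of Gm12216 13.2% of Irf1, and those of Junos 16.6% of Jun, so the values of these genes are uncertain.

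Of the immediate early and stress genes, 4 were lower on Day 3 in Il6-/- recipients, beside 6.19% of all genes: Egr2 (log2FC -0.78), Zfp36 (-0.94), Egr1 (-0.46) and Jun (-1.15). On Day 5, Egr1 was lower (log2FC -0.58, FDR = 0.011), and Dnajb1 (0.64, FDR = 0.045) and Hspa1a (3.46, FDR = 0.048) were higher. Hspa1a has a near-identical copy, Hspa1b, so its counts are uncertain.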

How the data were processed

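RNA of sorted OTII cells was sequenced as single-end, poly(A)-selected libraries from ultra-low input. Per the labels and the study's methods, the authors used Trim Galore 0.4.4 for trimming, STAR 2.5.2a for alignment (GRCm39) and HTSeq-count 0.6.1p1, in its unstranded mode, for the read count of each gene, and deposited these raw counts, 1 table for each of the 12 libraries. Their table of log2 CPM values was not used here. HTSeq's summary rows were left out. Reads on genes made up 60.2% to 62.2% of each Day 3 library and 52.5% to 56.7% of each Day 5 library.

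Samples were grouped by the recipient genotype and day of the labels. Genes were filtered with filterByExpr, scaled by TMM (factors 0.944 to 1.06) and tested with edgeR 4.0.16 (R 4.3.3) in 1 model of 4 groups, by the quasi-likelihood F test with Benjamini-Hochberg adjustment over 13570 genes. The median biological coefficient of variation was 0.132. CPM used TMM-scaled totals, and levels between genes were divided by the length of the exon union (GENCODE vM39). DESeq2 1.42.0, limma-voom (limma 3.58.1), 3 other scalings, 2 other filters, a fit of 6 libraries, a replicate block and each of 12 fits without 1 library served as alternatives. Replicate numbers are shared by the groups. Deviations of same-numbered libraries correlated at 0.0333, 0.0599 and 0.0325 on Day 3, and at 0.243, 0.206 and 0.129 on Day 5, each over 0.1. Libraries with different numbers correlated at -0.0683 to 0.0306 on Day 3 and at -0.182 to -0.0316 on Day 5. Deviations were taken from group means, so the correlations of a day are not independent of each other. On the data alone, the numbers were taken to pair the Day 5 libraries only. The main model did not include this pairing, and the replicate block was fitted for both days.

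The members and the gene lists were chosen with earlier results of these data known. Of each list, the text names up to 6 genes that passed for a comparison of recipients, those with the smallest p, up to 3 in each direction for a comparison of days, and for markers up to 3 by mean level. Tnfrsf1b on Day 3 and some markers of low level are named in addition. The 5 genes most like Bcl3 were those with the highest Pearson r of log2 CPM (prior count 2). Values of some genes of the lists are not reported here.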

Additional observations from a re-analysis of the deposited data

Results flagged for a closer look

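The difference of Relb between recipients differed between the days. The Day 5 log2FC minus the Day 3 log2FC was -0.65 (edgeR quasi-likelihood F test of the interaction, SE 0.16, FDR = 0.029), with a log2FC of 0.15 on Day 3 and -0.50 on Day 5. On Day 5 all 3 Il6-/- libraries (75.5 to 83.3 CPM) were below all 3 WT libraries (95.3 to 126 CPM), whereas on Day 3 the groups overlapped. Its call was lost without any 1 of 8 libraries. No other member passed this test.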

How the results depend on the processing

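Over all alternatives, 964 of the members' log2FC kept direction and side of the threshold, 43 lost their call, 18 gained one and 25 turned sign. Members called between recipients on Day 3 numbered 4, and 2 to 4 without 1 library. On Day 5, 2 became 4 in DESeq2, 4 with the replicate block and 0 to 3 without 1 library, with 0 when WT Day 5 replicate 1 or 2 or Il6-/- Day 5 replicate 2 was left out and 1 without Il6-/- Day 5 replicate 3. The interaction called 0 to 1 members without 1 library. The replicate block added Nfkb2 (0.28) and Nfkbia (-0.32) on Day 5 and Bcl3 in WT between the days (-0.53), and changed no other member's call. All-gene calls were 1861 on Day 3 (942 to 2042 without 1 library, the fewest without WT Day 3 replicate 2), 626 on Day 5 (1127 in DESeq2, 1397 without a filter, 1592 with the block, 359 from 6 libraries, 225 to 1169 without 1 library) and 668 for the interaction (1132, 1300 without a filter, 1564 with the block, 235 to 943 without 1 library). Signs turned only for members that did not pass, apart from Nfkb2 in Il6-/- between the days. With upper-quartile scaling the log2FC was -0.0071 for Rela on Day 5, 0.043 for Nfkb2 and 0.030 for Nfkbib in WT between the days, and 0.0029 for Nfkb2, 0.18 for Relb and 0.127 for Nfkbib in Il6-/-. Without scaling it was 0.030 for the Nfkb2 interaction, 0.10 for Relb and 0.049 for Nfkbib in Il6-/- between the days. Rela on Day 5 was -0.00077 with the CPM filter, -0.00066 in limma-voom and -0.0096 from 6 libraries. Without 1 library, Nfkbia on Day 3 was -0.11 to 0.060, Rela on Day 5 -0.019 to 0.038, Tnfaip3 on Day 5 -0.069 to 0.41, the Nfkbib interaction -0.0062 to 0.15, the Bcl3 interaction -0.46 to 0.0087, and, in Il6-/- between the days, Nfkb1 -0.017 to 0.17 and Relb -0.11 to 0.0050. In the subunit pool without division by length, day differences were 0.42 points for Nfkb1, 1.87 for Rel and 3.07 for Rela, and recipient differences -3.52 for Rela and -3.44 for Relb, the last 4 past an adjusted exact p of 0.05. Without 1 library, day differences were -0.55 to 0.14 points for Nfkb1 and 0.89 to 1.47 for Rel, the recipient difference of Rel was 1.63 to 2.21, and day differences of the log2 ratios were -0.68 to -0.35 for Bcl3 and -0.13 to 0.00075 for Relb to Rela. The cause of these changes was not tested. The members had at least 230 counts in each library, and no test of depth was run.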
